A study of Mus musculus with 3 samples.

Results

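The data describe 50 genes of ribosome biogenesis and the nucleolus in mouse T-helper 1 (Th1) cells. They were chosen by name and not by a rule on measured values, although earlier results of these data were known. All 50 were found by gene symbol among the 50600 genes of the files. RNA was sequenced from 3 libraries, labelled as biological replicates 1, 2 and 3 of 1 group of primary Th1 cells of the strain C57BL/6NJ. The labels give the libraries 1 donor record and no sex, age or treatment, and paths in the file headers carry the words for 72 hours and for sorting. There is no second condition, so the comparisons below are between genes and between libraries. Of the 50 genes, 34 shared no exon base with a gene annotated on the opposite strand (called without overlap below) and 16 did (32.0%, called with overlap), against 22.1% of protein-coding genes and 36.7% of those with at least 10 TPM, a unit defined below. The levels, the calls between libraries and the differences between replicates 3 and 1 are also given for the 2 sets apart.

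Ribosomes are assembled in the nucleolus. RNA polymerase I transcribes a long precursor rRNA there, small nucleolar ribonucleoproteins (snoRNPs) modify it, and a large set of assembly factors cuts and folds it into the small 40S and large 60S subunits. A T cell that is activated to divide is known to enlarge its nucleolus and to raise the expression of this gene set.

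The libraries held 4482916, 266790 and 3733531 counts in replicates 1, 2 and 3, so replicate 2 was 16.8-fold and 14.0-fold shallower than the other two. Levels are given as TPM, the share of the library that a gene takes after its counts are divided by its exon length. For a gene with 2000 exon bases, 3 counts amounted to 11.6 TPM in replicate 2 but to 0.717 and 0.737 TPM in replicates 1 and 3. In that library 6 of the 50 genes had fewer than 10 counts, and in the others none did. Genes with overlap held 51.7%, 55.1% and 66.5% of all counts in replicates 1, 2 and 3. The 9 markers of T cells and of the Th1 fate, among them Cd4, Trac, Tbx21 and Ifng, all had a mean of at least 10 TPM, and their sum ranged from 1097 to 2355 TPM. Of 17 markers of other cell types 12 had 0 counts in every library, including Ms4a1, Lyz2, Adgre1, Ncr1, Cd8a, Hbb-bs and Pf4, and the sum of all 17 ranged from 4.15 to 8.14 TPM. Pecam1 was the highest of the 17, with 54, 5 and 43 counts in replicates 1, 2 and 3 and a mean of 4.58 TPM. Zbtb46 had a mean of 1.04 TPM.

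Every level given here, those of the markers included, is that of the counted strand. A fragment was counted when its first read lay on the strand of the gene, and which strand the library protocol reads first is not given in the sources used here. On the mitochondrial genome, mt-Nd6 lies on the light strand, and its TPM was 5.09, 9.12 and 8.07 times that of mt-Co1, on the heavy strand, in replicates 1, 2 and 3. If the first read lies opposite to the RNA, the values of genes without overlap are those of a minority of their fragments, and those of genes with overlap include RNA of the gene facing them. In mitochondria mt-Co1 is usually by far the more abundant RNA of the 2.

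The 50 genes were highly represented as a group. In bulk RNA, fewer cells that express a gene and less of its RNA per cell cannot be told apart. All 50 had a mean of at least 1 TPM, 49 of at least 10 TPM and 34 of at least 50 TPM, where the same held for 47.8%, 27.3% and 8.42% of 21764 protein-coding genes. Their median was 70.3 TPM, at percentile 93.9 of protein-coding genes. The 34 genes without overlap had a median of 59.3 TPM (percentile 92.9) and ranged from 17.9 to 2293 TPM. The 16 genes with overlap had a median of 87.8 TPM (percentile 95.3) and ranged from 8.73 to 781 TPM. Together the 50 genes held 0.732% ± 0.164 (SD, n = 3) of all TPM, with 0.851%, 0.799% and 0.544% in replicates 1, 2 and 3. Without Npm1, the highest of them, the share was 0.502% ± 0.0944 (SD, n = 3).

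On the log2(TPM + 1) scale the median of the 50 genes was 6.09. Structural proteins of the cytosolic ribosome (83 genes by symbol, close paralogs included) had a higher median of 9.27, and those of the mitochondrial ribosome (78 genes) a lower one of 4.94. The median over all 10408 protein-coding genes of at least 1 TPM was 3.65. These medians are descriptions of the lists, with no test between them.

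**Figure D1:**
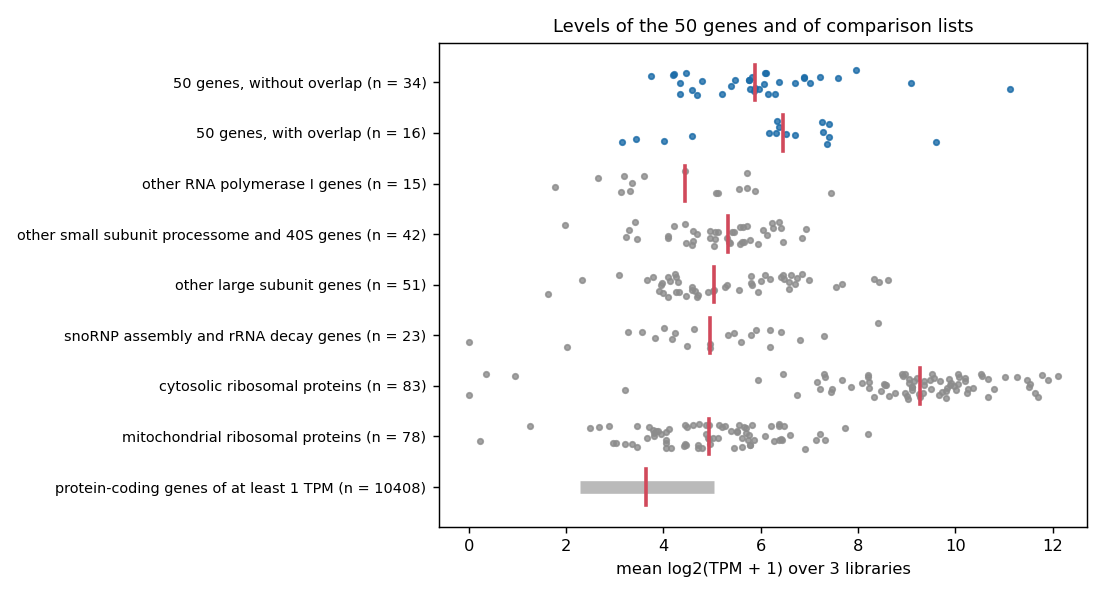
Mean log2(TPM + 1) over 3 libraries (horizontal axis) for each gene (points) of the 50 ribosome biogenesis genes, split by opposite-strand exon overlap, and of comparison lists, with the median of each list as a red bar. For protein-coding genes of at least 1 TPM the grey bar spans the middle 50% of genes. The 2 sets of the 50 genes have medians of 5.88 and 6.45, between those of the cytosolic (9.27) and the mitochondrial (4.94) ribosomal proteins.

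The promoters of these genes were searched because the group is known in other cells as a target of the factor MYC, which binds the E-box. RefSeq promoter windows on GRCm38.p6 were found for 44 of the 50 genes, and 6 motifs were sought on both strands in the 250 bases before each start. The E-box CACGTG was in the window of 4 of the 44 genes (9.09%), against 7.61% of 17492 protein-coding genes and 6.86% of all 27025 genes with a window. The ETS-type motif CCGGAAG was in 12 (27.3%), against 10.2% of protein-coding and 7.83% of all genes, and the GC box GGGCGG in 28 (63.6%), against 45.8% and 35.4%. The CCAAT box was in 17 (38.6%, against 39.5% and 37.5%), the TATA box TATAAA in 2 (4.55%, against 13.7% and 14.3%) and the palindromic NRF1 motif in 0 (against 1.21% and 0.877%). These shares describe letters in a window, not binding. Shown here are 5 windows that hold an E-box or the ETS-type motif and lie outside any counted exon, picked after the values were seen. They run 5′ to 3′ on the strand of the gene, with the motif in capitals. The window of Nop2 (chr6:125131793-125131858, plus strand) holds the E-box in capitals and a copy of the ETS-type motif in lower case. The others are Utp18 (chr11:93885767-93885816, minus strand), Rrn3 (chr16:13780621-13780686, plus strand), Nolc1 (chr19:46075803-46075846, plus strand) and Emg1 (chr6:124712186-124712252, minus strand).
Nop2: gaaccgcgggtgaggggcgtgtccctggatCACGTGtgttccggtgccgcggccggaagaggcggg
Utp18: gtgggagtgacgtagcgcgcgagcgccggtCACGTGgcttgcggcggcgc
Rrn3: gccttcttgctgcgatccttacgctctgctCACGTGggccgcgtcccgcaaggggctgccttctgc
Nolc1: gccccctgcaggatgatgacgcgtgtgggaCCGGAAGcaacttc
Emg1: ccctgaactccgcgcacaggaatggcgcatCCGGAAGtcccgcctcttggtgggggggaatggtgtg
The 4 genes with an E-box ranged from Imp4 at 8.73 TPM, the lowest mean of the 50 genes, to Nop2 at 109 TPM. The highest mean of the 50 genes was 2293 TPM, for Npm1, in whose window no E-box was found.

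**Figure D2:**
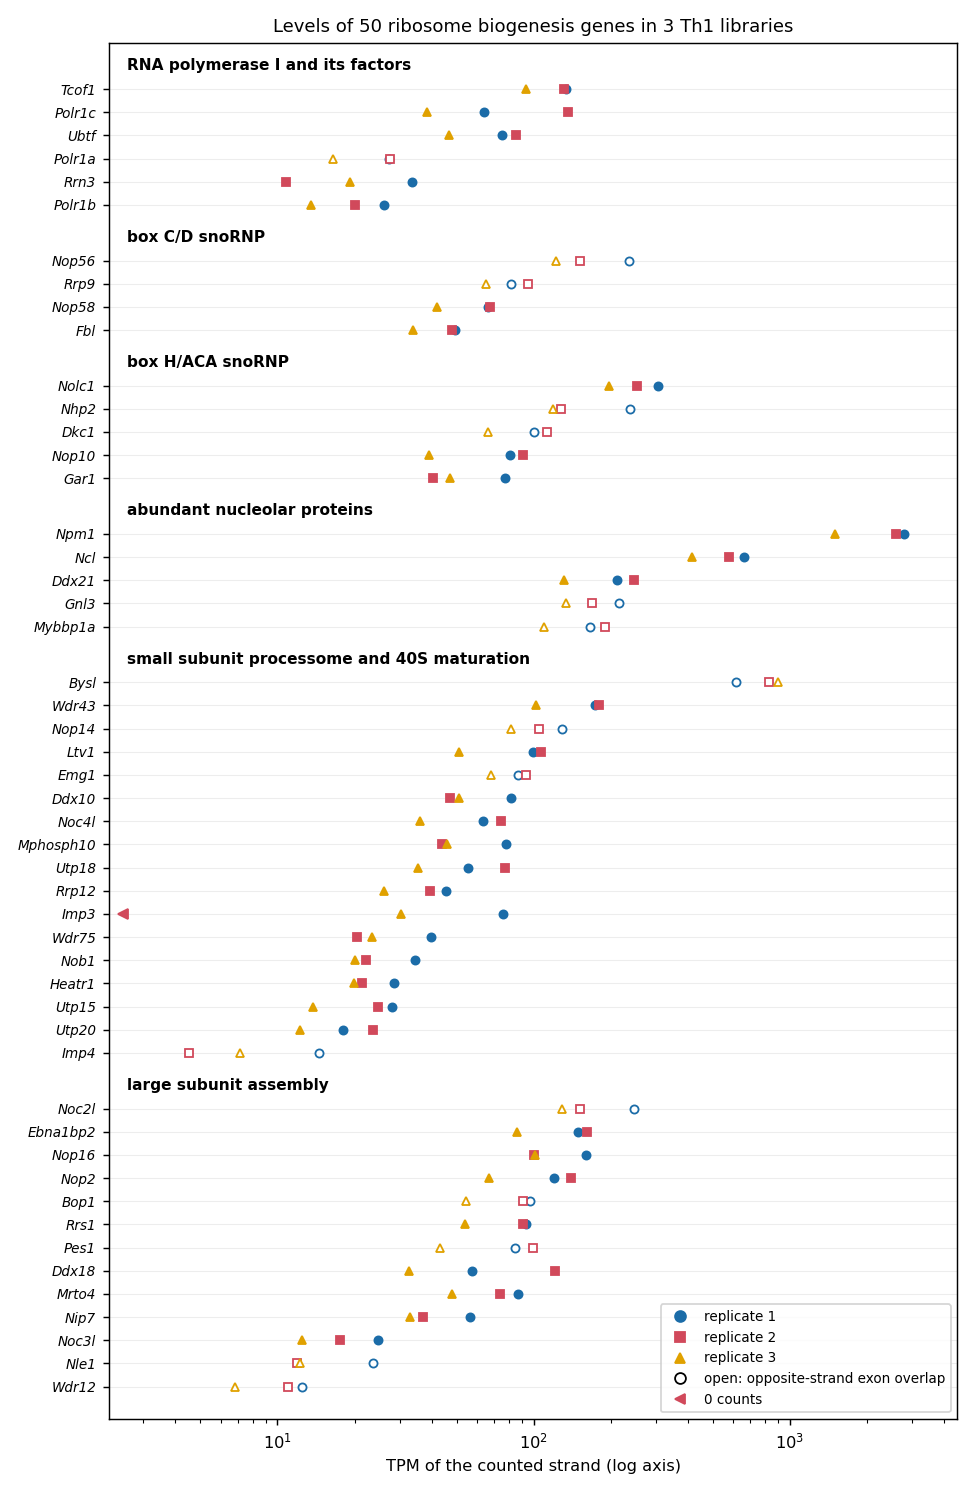
TPM of the counted strand on a log axis (horizontal) for each of the 50 genes in replicates 1 (circles), 2 (squares) and 3 (triangles), grouped by role and ordered by mean. Open symbols mark genes with opposite-strand exon overlap, and the arrowhead marks 0 counts of Imp3 in replicate 2. By TPM, replicate 3 is the lowest library for 40 of the 50 genes, and Bysl is the one gene lowest in replicate 1. The same share over all genes was not computed. All protein-coding genes together held 59.4%, 55.7% and 43.8% of TPM in replicates 1, 2 and 3. On the TMM scale of the test between libraries given below, Rrp9 and Emg1 are also lowest in replicate 1.

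The levels of single genes follow by role, each with its values in replicates 1, 2 and 3 in that order. The machinery of RNA polymerase I was present at moderate levels. Tcof1, which encodes treacle, a nucleolar scaffold that links rRNA transcription to modification, had the highest mean of these 6 genes on exon length, with 134, 131 and 93.5 TPM. On transcript length its mean was 110.6 TPM and that of Polr1c 111 TPM. Its libraries lay close together, with replicate 3 lowest. Ubtf, the factor that binds the rRNA gene promoter and opens its chromatin, had 74.96, 85.05 and 46.6 TPM. The 2 catalytic subunits were lower. Polr1a, the largest subunit (with overlap), had 27.3, 27.4 and 16.5 TPM and Polr1b had 26.1, 19.999 and 13.5 TPM, with ratios of Polr1a to Polr1b of 1.04, 1.37 and 1.22, and of 0.926, 1.22 and 1.08 on transcript length. Polr1c, a subunit shared with RNA polymerase III, had 64.03, 136 and 38.4 TPM, with replicate 2 highest and above Tcof1 there. Rrn3, which brings the polymerase to the promoter, had 33.4, 10.8 and 19.2 TPM, where the value of replicate 2 rests on 5 counts (95% exact Poisson interval 3.49 to 25.1 TPM, counting error only). The means of Polr1a, Polr1b and Rrn3 were 23.7 ± 6.22, 19.9 ± 6.29 and 21.1 ± 11.4 TPM (SD, n = 3). These SDs are over libraries that the genes share, so their overlap does not judge a difference between genes, which was not tested.

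Box C/D snoRNPs place methyl groups on rRNA. Of their core proteins the scaffold Nop56 (with overlap) was highest, with 236, 151 and 122 TPM, and its paralog Nop58 had 66.3, 67.6 and 42.1 TPM. The methyltransferase fibrillarin, Fbl, had 49.4, 47.8 and 33.7 TPM. Nop56 was above Nop58 and Nop58 above Fbl in 3 of 3 libraries. The order of the last 2 depends on the gene length used. The counted exons of Fbl span 4209 bases, while its longest protein-coding transcript has 1197, and on transcript length the mean of Fbl was 124 ± 21.9 TPM (SD, n = 3) and that of Nop58 53.6 ± 12.1 TPM (SD, n = 3). Rrp9 (with overlap), the protein particular to the U3 snoRNP, had 81.7, 94.996 and 65.3 TPM, above Nop58 in 3 of 3 libraries although the 2 ranges overlapped.

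Box H/ACA snoRNPs convert uridine of rRNA to pseudouridine. The enzyme dyskerin, Dkc1 (with overlap), had 99.9, 113 and 66.3 TPM. Among its 3 small partners Nhp2 (with overlap) was the highest with 237, 128 and 119 TPM, above Dkc1 in 3 of 3 libraries (2 of 3 on transcript length). Nop10 had 80.6, 90.7 and 38.97 TPM and Gar1 77.6, 40.6 and 46.99 TPM, and both were below Dkc1 in 3 of 3 libraries. The order of Nop10 and Gar1 was not the same in every library, and the count of Gar1 in replicate 2 was 9. Nolc1, a chaperone that binds both kinds of snoRNP in the nucleolus, had 306, 253 and 197 TPM and was above Nop56 and Nhp2 in 3 of 3 libraries. On transcript length it was below Nop56 in all 3.

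Among the roles, the abundant nucleolar proteins had the highest median, 196 TPM over 5 genes. Npm1, nucleophosmin, a histone and ribosome chaperone of the outer nucleolus, had 2791, 2593 and 1494 TPM and ranked 22 among all protein-coding genes. Nucleolin, Ncl, an RNA-binding protein of rRNA transcription and processing, had 659.5, 577 and 415 TPM. Both were lowest in replicate 3, and Npm1 was above Ncl in every library. The exon length of Ncl, 10188 bases, includes long transcript models, but its mean on transcript length was nearly the same (553 ± 113 TPM, SD, n = 3). The RNA helicase Ddx21 had 212, 247 and 131 TPM. The nucleostemin gene Gnl3 (with overlap), a GTPase of proliferating cells, had 214, 169 and 133 TPM, and Mybbp1a (with overlap), a Myb-binding nucleolar protein, 166, 189 and 109.8 TPM. Ddx21, Gnl3 and Mybbp1a had overlapping ranges.

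The small subunit processome is the particle that forms on the 5′ part of the precursor rRNA. Of the factors that bind the nascent RNA first, Wdr43 was the highest with 174, 179 and 102 TPM, while Wdr75 (39.9, 20.5 and 23.5 TPM), Heatr1 (28.4, 21.3 and 19.8 TPM) and Utp15 (27.96, 24.7 and 13.8 TPM) were lower. Wdr43 was at least 4.35 times as high as any of these 3 in each library, and at least 2.62 times on transcript length, although all 4 encode subunits of 1 complex. Utp18, of a second subcomplex, had a mean of 55.996 ± 21.1 TPM (SD, n = 3), and Utp20, a large scaffold protein, 17.9 ± 5.65 TPM (SD, n = 3).

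Imp3, Imp4 and Mphosph10 encode a trimer that joins the U3 snoRNA to the precursor. Mphosph10 had 78.1, 43.9 and 46.1 TPM. Imp3 had 147, 0 and 57 counts in replicates 1, 2 and 3, which gave 76.1 and 30.3 TPM in replicates 1 and 3. In replicate 2 its 0 counts allow up to 25.1 TPM (3 counts). Imp4 (with overlap) had 14.5, 4.52 and 7.18 TPM, where the value of replicate 2 rests on 5 counts. Its mean was the lowest of the 50 genes, but without replicate 2 it was 10.8 TPM, above the 9.65 TPM of Wdr12. Mphosph10 exceeded Imp4 in 3 of 3 libraries. The exon length of Imp4, 8553 bases, lowers its TPM, and with the longest transcript its mean was 10.3 ± 5.92 TPM (SD, n = 3).

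The paired factors Nop14 (with overlap) and Noc4l had 129, 105 and 81.3 TPM and 63.6, 74.5 and 35.9 TPM, with Nop14 higher in 3 of 3 libraries. Emg1 (with overlap), a methyltransferase of 18S rRNA, had 86.6, 93.6 and 67.8 TPM. Its exon length of 4632 bases is 4.48 times that of its longest coding transcript, and on that length its mean was 299.7 ± 42.6 TPM (SD, n = 3). The helicase Ddx10 had a mean of 59.8 ± 18.9 TPM (SD, n = 3). Of the late 40S factors, Ltv1, which leaves the particle in the cytoplasm, had 99.1, 107 and 51.1 TPM. Rrp12, an export factor, had 45.5, 39.4 and 26.1 TPM, and the endonuclease Nob1, which makes the final cut of 18S rRNA, 34.3, 22.2 and 20.003 TPM. Ltv1 was above Rrp12 in 3 of 3 libraries on both lengths. Rrp12 was above Nob1 in 3 of 3, but below it in all 3 on transcript length. Bysl (with overlap), bystin, a 40S factor, had 613, 831 and 898 TPM, by its mean the second of the 50 genes after Npm1 although below Ncl in replicate 1, and is taken up with the gene facing it below.

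Among the factors of the large subunit, Pes1, Bop1 and Wdr12 form the PeBoW complex, which is needed to process 28S rRNA. All 3 were with overlap. Pes1 had 84.6, 99.8 and 43.03 TPM and Bop1 96.4, 90.6 and 54.5 TPM, and the order of the 2 changed between libraries. Wdr12 had 12.4, 11.01 and 6.86 TPM, below both in 3 of 3 libraries, and on transcript length its mean was 9.74 ± 2.59 TPM (SD, n = 3), against 63.3 ± 23.6 TPM (SD, n = 3) for Pes1. Of the pair that escorts early 60S particles, Noc2l (with overlap) had 247, 151 and 129 TPM and Noc3l 24.8, 17.5 and 12.5 TPM. Noc2l was at least 8.63 times as high in each library on exon length. Ebna1bp2 (148, 161 and 86.2 TPM), Nop16 (160.2, 101 and 101 TPM) and the methyltransferase of 28S rRNA Nop2 (119.7, 139.6 and 66.96 TPM) were the next highest. Rrs1, which helps place the 5S rRNA, had a mean of 79.4 ± 21.8 TPM (SD, n = 3), and Mrto4, which holds the place of a stalk protein, 69.8 ± 19.9 TPM (SD, n = 3). The helicase Ddx18 had 57.2, 122 and 32.6 TPM, with replicate 2 highest. Nip7 had a mean of 42.1 ± 12.4 TPM (SD, n = 3) and Nle1 (with overlap), which triggers removal of assembly factors, 15.9 ± 6.57 TPM (SD, n = 3).

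Exon length bears on the order of the genes. The median of the ratio of counted exon length to the longest coding transcript was 1.14, and it was above 2 for 5 of the 50 genes, Fbl, Nop56, Emg1, Nob1 and Mrto4. With the transcript length in place of the exon length, a setting chosen after the data were seen, these were the 5 genes whose mean moved by over 1.5-fold, all upward. Of 23 pairs of genes whose order was compared in each library, the transcript length changed the order in at least 1 library for 6, Nop58 and Fbl, Nolc1 and Nop56, Rrp12 and Nob1, Nhp2 and Dkc1, Nop10 and Gar1, and Polr1a and Polr1b.

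Each of the 16 genes with overlap faced 1 other gene, with 5 to 598 shared exon bases. In 5 of the 16 pairs the facing gene had the higher mean TPM. Gm28306, annotated as antisense, with 529 exon bases, facing Imp4 over 209 bases, collected 709, 63 and 1082 counts, more than the 259, 5 and 125 of Imp4 itself, whose exons are far longer. On the TPM scale its mean was 98.0 times that of Imp4. The facing gene of Pes1, 4930556J24Rik, had a mean of 584 ± 144 TPM (SD, n = 3), that of Nop14, Gm15522, 620.1 ± 84.6 TPM (SD, n = 3), and that of Polr1a, Gm26628, 176 ± 50.1 TPM (SD, n = 3). Samd11, which faces Noc2l over 598 bases, collected 4835, 203 and 5651 counts, more than the 1480, 56 and 752 of Noc2l. In each of these 5 pairs the facing gene had more TPM in all 3 libraries.

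Bysl was among the genes with a higher mean TPM than the gene facing them. It faces Ccnd3, the gene of cyclin D3, over 361 bases, 9.37% of its own exon length and 4.11% of that of Ccnd3. Bysl had 4944, 414 and 7048 counts in replicates 1, 2 and 3, and Ccnd3 1043, 39 and 572. On the TPM scale Bysl was at 781 ± 149 (SD, n = 3) and Ccnd3 at 41.1 ± 13.7 (SD, n = 3). Whether fragments of Ccnd3 were counted for Bysl was not tested. Without Bysl the share of TPM of the whole list was 0.654% ± 0.176 (SD, n = 3).

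**Figure D3:**
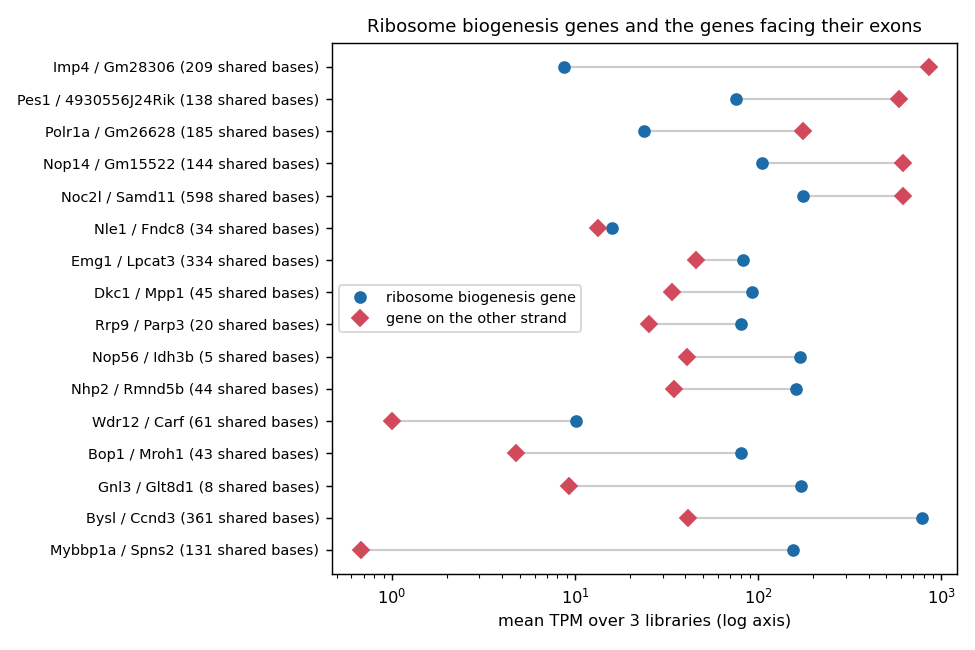
Mean TPM over 3 libraries on a log axis (horizontal) for each of the 16 genes with overlap (circles) and the gene on the other strand that faces it (diamonds), with the number of shared exon bases. The facing gene is higher in the top 5 pairs, by up to 98.0-fold for Imp4, and lower in the other 11, by the widest margin opposite to Mybbp1a.

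A test between libraries asked which genes varied by more than counting error. A gene was called when a chi-square test of its counts in the 3 libraries gave an adjusted p under 0.05 over all genes tested and its highest library was at least 2 times its lowest. All 50 genes had the mean count of 10 needed for the test. Of these, 6 (12.0%) were called, against 29.5% of all 11595 genes tested. Of the 34 without overlap, 4 were called (11.8%), against 22.6% of such genes, and of the 16 with overlap 2 were called (12.5%), against 39.7%. By the library with the highest value, 3 of the 50 were called with replicate 1 highest (6.99% of all genes), 2 with replicate 2 (10.5%) and 1 with replicate 3 (12.0%). At any ratio, 38 of the 50 genes (76.0%) had an adjusted p under 0.05, against 55.5% of all genes tested. They were 27 of the 34 without overlap (46.9% of such genes) and 11 of the 16 with overlap (68.3%). At any ratio, the chi-square test finds smaller differences in genes with more counts. A mean count of at least 100 was reached by 47 of the 50 genes and by 5137 of the 11595 genes tested. The part of count level in these shares was not tested.

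Replicate 2 set 5 of the 6 calls. Polr1c had 40 counts there where 17.9 were expected from its pooled level and the depth, and its ratio was 2.61 (chi-square test, adjusted p = 6.42e-07). Ddx18 had 39 counts where 17.2 were expected, with a ratio of 2.75 (chi-square test, adjusted p = 1.97e-07). Imp3 had 0 counts against 7 expected, with a ratio of 2.96 over 3 counts (chi-square test, adjusted p = 4.66e-05). Rrn3 had 5 against 13.6 (ratio 3.04, chi-square test, adjusted p = 0.0131) and Imp4 (with overlap) 5 against 13.3 (ratio 3.13, chi-square test, adjusted p = 0.000471). Bysl (with overlap), the sixth, was highest in replicate 3 and lowest in replicate 1, with a ratio of 2.03.

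Leaving out a library changed these calls. Without replicate 2, Bysl was the 1 gene of the 50 called, against 14.9% of all genes tested, and 0 of the 34 without overlap, against 5.56% of such genes. Polr1c and Ddx18 differed between replicates 1 and 3 by ratios of 1.11 and 1.17. Without replicate 1, Polr1c and Ddx18 were called (18.0% of all genes), and without replicate 3 Polr1c, Imp3, Imp4 and Ddx18 (11.8% of all genes). Scaled and tested over genes without overlap alone, 3 of the 34 were called, Polr1c, Imp3 and Ddx18, against 15.5% of such genes, and Rrn3 was not. Without replicate 2 the mean of Polr1c fell to 51.2 TPM and that of Ddx18 to 44.9 TPM, and without replicate 1 the mean of Imp3 fell to 15.1 TPM. No other of the 50 means moved by over 1.5-fold when 1 library was left out.

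**Figure D4:**
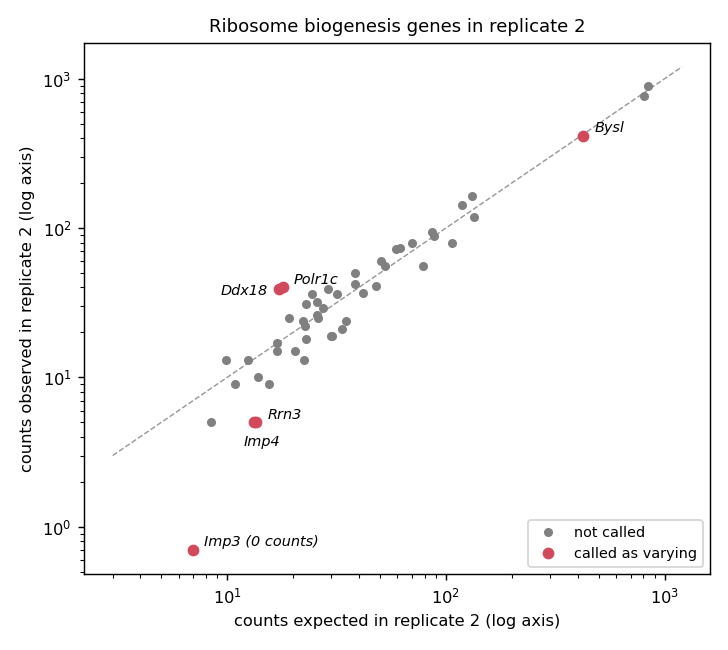
Counts of the 50 genes observed in replicate 2 (vertical, log axis) against counts expected from the pooled level of the 3 libraries and the depth of replicate 2 (horizontal, log axis), with the line of equality dashed. Red points are the 6 genes called as varying between libraries, and Imp3 with 0 counts is drawn at the lower edge. Polr1c and Ddx18 lie above the line, Rrn3, Imp4 and Imp3 below it, and Bysl, which varies between replicates 1 and 3, on it.

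The 2 deeper libraries ranked the genes alike. Across the 34 genes without overlap, Pearson's r of log2(TPM + 1) was 0.993 and Spearman's rho 0.98 between replicates 1 and 3, against 0.782 and 0.839 between replicates 1 and 2. Across the 16 genes with overlap r was 0.98 between replicates 1 and 3 and 0.959 between 1 and 2. These are correlations across genes, which share the library and its depth and are not independent replicates.

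Between replicates 3 and 1 the median difference of the 34 genes without overlap depended on the scaling. Under both scalings it was close to that of all tested genes without overlap. Scaled by TMM over all genes, all 34 were lower in replicate 3, as were 80.4% of the tested genes without overlap (47 of all 50, against 62.6% of all genes tested). Their median difference was -0.30 on the log2 scale (replicate 3 over replicate 1), and the median of all tested genes without overlap was -0.29. Scaled over genes without overlap alone, 22 of the 34 (64.7%) were lower in replicate 3, against 58.6% of such genes, with a median of -0.06 against -0.06 for all of them. The direction of the other 12 genes thus flipped with the scaling, among them Ncl (from -0.20 to 0.03) and Tcof1 (from -0.04 to 0.19). Npm1 was lower under both (-0.43 and -0.20), and so was Imp3, the furthest of the 34 (-0.85 and -0.62).

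Of the 16 genes with overlap 13 were lower in replicate 3 when scaled over all genes (81.2%, against 36.0% of all tested genes with overlap), with a median of -0.30. The 3 exceptions were Bysl (1.02), Rrp9 (0.15) and Emg1 (0.12). Of the genes facing these 16, which are genes with overlap too, 13 were higher in replicate 3, with a median of 0.86. Over all tested genes with overlap the median was 0.44, with 36.0% lower in replicate 3. The 13 include Spns2, facing Mybbp1a, which had 8, 0 and 9 counts and was not tested. Gm26628 facing Polr1a was at 1.22, Gm28306 facing Imp4 at 1.12 and Samd11 facing Noc2l at 0.73. Among the 3 facing genes that were lower in replicate 3 was Ccnd3 (-0.36), the gene opposite to Bysl. In that pair and in that of Rrp9 and Parp3 (-0.29) the ribosome biogenesis gene was higher and the facing gene lower in replicate 3. The share of counts in genes with overlap also was highest in replicate 3, and its part in these differences was not tested.

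**Figure D5:**
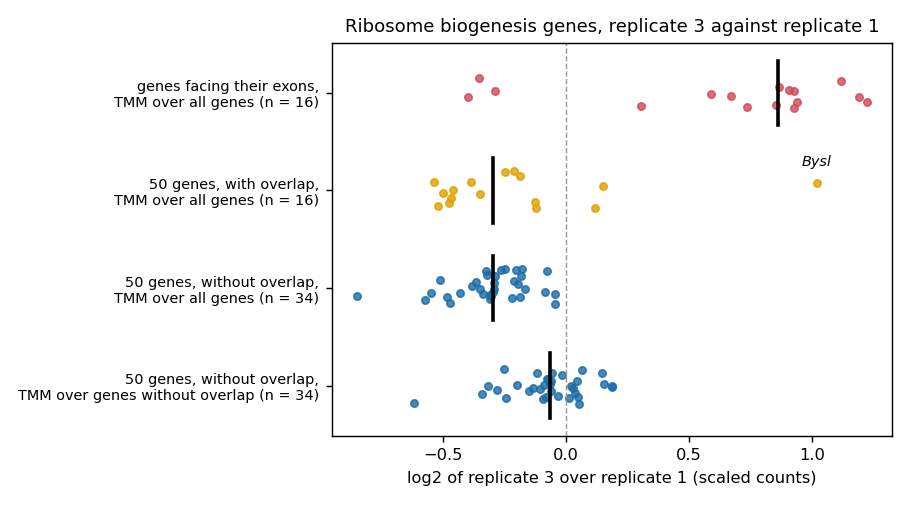
Log2 of scaled counts in replicate 3 over replicate 1 (horizontal axis) for each of the 50 genes, split by overlap and scaling, and for the 16 genes facing their exons, with black bars at the medians. The medians are -0.06 and -0.30 for the genes without overlap under the 2 scalings, -0.30 for those with overlap, where Bysl stands alone at 1.02, and 0.86 for the facing genes.

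Other genes of the pathway were measured with a list of 132 symbols, of which 131 were found by symbol in the files. Of these, 130 had at least 1 TPM and 119 at least 10 TPM, with a median of 5.08 on the log2(TPM + 1) scale. In the test between libraries, 34 of 130 tested were called (29.5% of all genes). Of the 130, 14 were called with replicate 1 highest (6.99% of all genes), 15 with replicate 2 (10.5%) and 5 with replicate 3 (12.0%). Among 51 other large subunit genes 10 were called (29.5% of all genes). The highest of them in level were Pa2g4, a growth-linked RNA-binding protein (409 ± 140.5 TPM, SD, n = 3), Lyar (349.9 ± 87.8 TPM, SD, n = 3) and Rsl1d1 (333 ± 106 TPM, SD, n = 3), among all 51. Among 42 other small subunit genes 11 of 42 were called (29.5% of all genes). Fcf1 (with overlap), a protein of the processome, had 263, 31 and 140 counts in replicates 1, 2 and 3, and Utp3 had 124 ± 35.6 TPM (SD, n = 3) and Dcaf13 92.9 ± 36.8 TPM (SD, n = 3).

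Of 15 other subunits and factors of RNA polymerase I, 5 were called (29.5% of all genes), of which 4 were highest in replicate 1 (6.99% of all genes). All 5 were lowest in the shallow replicate 2 (14.7% of all genes), with 2 to 15 counts there. Polr2e, a subunit shared by all 3 nuclear polymerases, had 559, 11 and 235 counts in replicates 1, 2 and 3 (ratio 3.07, chi-square test, adjusted p = 5.87e-12), and Polr1e 153, 2 and 71 counts. Polr2f, also shared, had the highest level with 179 ± 49.8 TPM (SD, n = 3). Of 23 genes of snoRNP assembly and rRNA decay 8 of 22 tested were called (29.5% of all genes). The RuvB-like ATPase genes Ruvbl2 (with overlap) and Ruvbl1, which assemble snoRNPs, had 158 ± 32.9 TPM (SD, n = 3) and 120.2 ± 57.1 TPM (SD, n = 3), and the exosome subunit Exosc9 (with overlap) 344 ± 80.97 TPM (SD, n = 3). Exosc9 was highest in replicate 3 on the scale of the test, like Bysl. Rmrp, the RNA of a ribonuclease that cuts precursor rRNA (with overlap), had 0 counts in every library.

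Some of the 50 genes carry snoRNA genes in their introns, and the files count these as genes of their own. By coordinates, 19 snoRNA genes and 1 miRNA gene lay inside 6 of the 50 genes on the same strand, in Nop56, Nop58, Dkc1, Ncl, Gnl3 and Wdr43. Their host genes had from 58.7 TPM (Nop58) to 551 TPM (Ncl). Of the 20 small RNA genes 7 had any count, and all 20 together had 13, 12 and 6 counts in replicates 1, 2 and 3. The most were in Snord69 inside Gnl3, with 2, 9 and 1 counts, and in Snord19 inside Gnl3, with 7, 0 and 2. Of all 1507 snoRNA genes in the files 153 had any count. The labels name a library protocol for polyadenylated RNA, and mature snoRNAs carry no poly(A) tail.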

How the data were processed

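RNA of 3 libraries of mouse Th1 cells was analysed from 1 table of counts per gene and library. The authors deposited counts, which per the file headers come from featureCounts 1.4.6-p4 run on read pairs with both ends mapped, over exons of GENCODE vM13 on mm10, with strand setting 1. The labels name a protocol for polyadenylated RNA. Gene names came from GENCODE M21 by identifier (50376 of 50600 matched). TPM was computed from the counts and the exon length in the files. Library sizes were scaled by TMM (edgeR 4.0.16, R 4.3.3), with the size factors of DESeq2 1.42.0, run on the counts, as an alternative. Counts of genes with a mean of at least 10 were compared between libraries by a chi-square test with Benjamini-Hochberg adjustment over all genes tested (SciPy 1.17.1), and a gene was called where the adjusted p was under 0.05 and the highest library reached at least 2 times the lowest, the latter taken as no less than 3 counts. Log2 ratios of replicates 3 and 1 used a prior count of 0.5. With 1 group there is no contrast between conditions, and these p-values compare libraries and hold counting error only, as do the intervals and floors. On simulated counts for this comparison of 3 libraries, with Poisson error and 11578 genes tested, 100 of 100 genes changed 4-fold and 70 of 100 changed 2-fold in replicate 3 were called, with 8 calls among 11378 unchanged genes. The simulation held the same counting error that the test assumes and no other. No gene was changed in replicate 2, so it gives no rate for calls set by that library.

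The genes, lists and tests were chosen with earlier results of these data known. Any of the 50 genes could be named. Of each list of other pathway genes, the 3 highest in mean TPM, any under 1 TPM and the 3 with the highest ratio among those called could be named, as could genes facing the 50 genes, snoRNA genes within them and the markers. Strand-specific signal tracks were not used here. Promoter sequences are from RefSeq. The alternatives tried were other scalings, count and TPM minimums, ratios, pseudocounts, gene sets, gene lengths and leaving out each library.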

Additional observations from a re-analysis of the deposited data

How the results depend on the processing

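The number of the 50 genes called as varying between libraries was 6 with DESeq2 size factors (29.1% of all genes) or no count minimum (18.3%), 7 with library totals (32.1%) and 5 with a mean count of at least 100 (34.1%). With a ratio of at least 1.5 it rose to 19 (44.7% of all genes), 13 without and 6 with overlap. Over genes without overlap alone it was 3 of 34. Leaving out 1 library gave 1 to 4 calls over all 50 genes, 0 to 3 without overlap and 0 to 1 with overlap, lowest without replicate 2 except for the genes with overlap, where it was lowest without replicate 1. The median log2(TPM + 1) of the 50 genes was 5.94 to 6.42 with 1 library left out. That of the 34 genes without overlap was 7.45 when TPM was computed over such genes alone, against 5.88. The share of the 50 genes was 1.38% of counts, against 0.672% to 0.825% of TPM with 1 library left out. The 34 genes without overlap held 1.51% of TPM over such genes, against 0.513% of TPM over all genes. The median difference between replicates 3 and 1 of the genes without overlap was -0.54 with library totals and -0.065 with TMM over genes without overlap. By construction a scaling moves all genes together. The median of all genes tested, those with overlap included, was -0.42 with library totals, and that of tested genes without overlap alone was not computed there. With TMM over all genes the medians were -0.296 for the 34 genes and -0.293 for all tested genes without overlap. With TMM over genes without overlap the median of all of them was -0.062. With 1 library left out, 48 to 49 genes had a mean of at least 10 TPM. Without replicate 2 Wdr12 fell below it, at 9.65 TPM, and Imp4 was above it, at 10.8 TPM. The length of the longest transcript, chosen after the data were seen, gave a median of 6.04. No paired analysis was possible because there is 1 group of samples. Depth limits replicate 2 most.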
